A study of Homo sapiens with 5 samples.

Results

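MALAT1 and NEAT1 are long noncoding RNAs of the nucleus, transcribed from neighbouring genes on chromosome 11. The peaks described here are the 107 rows, of 80514 in the deposited peak table, that overlap the hg19 intervals chr11:65265233-65273940 (MALAT1, 57 rows) and chr11:65190269-65213011 (NEAT1, 50 rows). The pair was chosen with results of these data known. It was selected on the classes of the rows at this locus, many of which were found only without ADAR2, so the class counts below are a description and were not tested. The study mapped the RNA contacts of SRSF9, a splicing factor of the SR family, in the human kidney-derived line HEK 293T. Its assay was eCLIP, which crosslinks proteins to RNA, pulls one protein down and sequences the attached fragments. Cells overexpressing SRSF9 together with the adenosine deaminase ADAR2 gave 2 libraries, and cells overexpressing SRSF9 alone gave 2. Another, of input RNA, came from cells with both proteins. The labels name an anti-SRSF9 antibody, while the extraction protocol names MYC-coupled beads.

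MALAT1 is one of the most abundant nuclear RNAs. It gathers in nuclear speckles, where SR proteins are also concentrated, and its mature 3′ end is made by cleavage that releases a small tRNA-like RNA. NEAT1 is made in a short form, ending at a polyadenylation site near the 5′ end of the gene, and a long form that continues far beyond it. The long form is the scaffold of paraspeckles, nuclear bodies known for retaining RNAs that carry A-to-I editing.

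Each row of the table has a position and the authors' log2 ratio in both libraries of every condition where the peak was present. The denominator of the ratio is not named in the table. Read depths are unknown here, so single values carry no interval. The columns carry no replicate name, and the libraries of a condition are called first and second in file order. Nothing in the labels says whether they came from separate cultures, so p-values reflect the spread among these libraries alone, and that spread may be technical. The table also gives no RNA level, so a ratio cannot be split into the amount of RNA and the extent of binding. Rows with the same coordinates were averaged, which left 51 regions in MALAT1 and 48 in NEAT1.

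The stretches of RNA under the peaks that the results turn on are printed first. The sequences were read from the GENCODE release 29 transcripts of MALAT1 and NEAT1, each a single exon on GRCh38 with the length of its hg19 interval (8708 and 22743 nt), at the peak's distance from the 5′ end. The distance between the starts of the genes was also the same in both builds, 74964 nt. The hg19 genome was not used here, so a base that differs between the builds would not be seen. Positions along a transcript are counted from 1 at the 5′ end of the interval. In the sequences below, capitals mark GGA, a motif recognised by SRSF1, a close relative of SRSF9. From MALAT1 these are 2 runs of abutting peaks found only without ADAR2, the shared region with the largest positive difference between conditions and the shared region with the largest negative one.
MALAT1 nt 1309 to 1399, without ADAR2 only: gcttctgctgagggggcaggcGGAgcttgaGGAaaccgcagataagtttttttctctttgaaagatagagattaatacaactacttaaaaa
MALAT1 nt 2275 to 2397, without ADAR2 only: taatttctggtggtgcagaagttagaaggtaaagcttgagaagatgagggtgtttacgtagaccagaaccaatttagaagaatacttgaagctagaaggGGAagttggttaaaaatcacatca
MALAT1 nt 2861 to 3000, shared: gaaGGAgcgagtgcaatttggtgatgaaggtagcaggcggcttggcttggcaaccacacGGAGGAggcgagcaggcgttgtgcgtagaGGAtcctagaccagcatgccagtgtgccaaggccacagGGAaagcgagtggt
MALAT1 nt 5600 to 5633, shared: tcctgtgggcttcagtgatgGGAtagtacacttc

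From NEAT1 these are the most 5′ and the most 3′ peak, which also had the highest ratios, the exclusive peak with the second-lowest mean ratio, and the shared regions with the largest negative and positive differences.
NEAT1 nt 121 to 246, with ADAR2 only: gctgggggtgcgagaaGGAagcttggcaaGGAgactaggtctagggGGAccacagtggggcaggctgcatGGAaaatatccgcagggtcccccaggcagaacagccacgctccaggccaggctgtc
NEAT1 nt 7414 to 7466, with ADAR2 only: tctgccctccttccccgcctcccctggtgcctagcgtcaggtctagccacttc
NEAT1 nt 19348 to 19389, shared: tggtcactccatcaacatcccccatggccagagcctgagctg
NEAT1 nt 21317 to 21420, shared: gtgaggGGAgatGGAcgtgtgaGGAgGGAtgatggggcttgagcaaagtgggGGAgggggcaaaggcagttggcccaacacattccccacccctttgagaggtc
NEAT1 nt 22627 to 22690, with ADAR2 only: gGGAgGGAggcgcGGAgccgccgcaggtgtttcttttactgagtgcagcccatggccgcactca

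The 2 RNAs differed in the classes of their peaks. Of the 57 rows of MALAT1, 13 were found with ADAR2 only (22.8%, 95% Wilson interval 13.8 to 35.2), 27 without ADAR2 only (47.4%, 35.0 to 60.1) and 17 in both conditions (29.8%, 19.5 to 42.7). Of the 50 rows of NEAT1, 38 were found with ADAR2 only (76.0%, 62.6 to 85.7), 3 without ADAR2 only (6%, 2.06 to 16.2) and 9 in both (18.0%, 9.77 to 30.8). Over the whole table the shares were 89.4% with ADAR2 only, 5.92% without ADAR2 only and 4.72% shared. Rows without ADAR2 only were thus a larger share in MALAT1 than in the table, while in NEAT1 their share was close to the table's. Shared rows were a larger share in both RNAs. The intervals cover counting error over rows, which share transcripts and are not replicates.

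Part of the MALAT1 count came from rows that touch each other. In MALAT1, 11 neighbouring pairs of rows found only without ADAR2 abutted with no nucleotide between them, against 38 such pairs in the whole table. No abutting pair occurred among rows found with ADAR2 only or among shared rows anywhere in the table (0 and 0). When abutting rows were joined, the 27 rows of MALAT1 became 16 stretches, and within 100 nt of each other they merged to 10. The corresponding numbers for MALAT1 peaks with ADAR2 only were 13 and 11. Abutting rows repeated the value of the second SRSF9-only library: the 27 rows held 26 distinct values in the first library and 16 in the second. In the run from nt 2275 to 2397, 4 rows ranged over 0.27 to 0.82 in one SRSF9-only library, the first, and all had 0.31 in the other. These rows are therefore not separate measurements in the second library.

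By length the difference between conditions in MALAT1 was small. Peaks with ADAR2 covered 1657 nt of MALAT1 (19.0% of its length) and peaks without ADAR2 covered 1685 nt (19.4%). In NEAT1, peaks with ADAR2 covered 2757 nt (12.1%) and peaks without it 678 nt (2.98%). Shared regions were the widest by median in both RNAs, at 81 nt in MALAT1 and 72 nt in NEAT1. They were also the widest over the whole table, at 50 nt, against 34 nt with ADAR2 only and 32 nt without ADAR2 only. Regions with ADAR2 only had median widths of 55 and 51 nt in MALAT1 and NEAT1, and regions without ADAR2 only had 28 and 43 nt.

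Few rows lay around the RNAs. The 52221 nt between NEAT1 and MALAT1 held 0 rows. An equally long stretch upstream of NEAT1 held 4 rows and one downstream of MALAT1 held 7, against 50 and 57 within the transcripts. Of these flanking rows 0 belonged to the class without ADAR2 only, and 1 was shared.

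**Figure D1:**
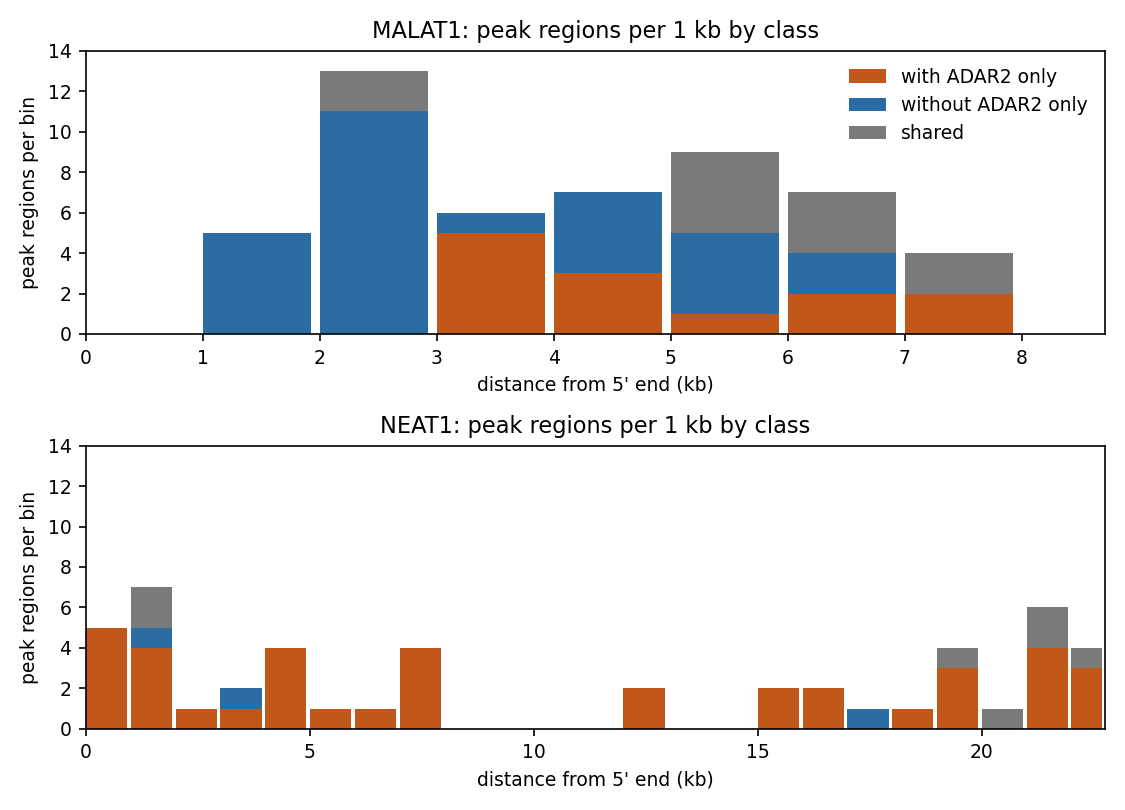
Number of distinct peak regions per 1 kb bin (y axis) against distance from the 5′ end in kb (x axis) for MALAT1 and NEAT1, coloured by class. In MALAT1 the bins from 1 to 3 kb hold 16 regions without ADAR2 only, with abutting regions counted singly, and none with ADAR2 only. In NEAT1 the bins from 8 to 12 kb hold no region of any class.

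Along MALAT1, the classes were not evenly placed. The first 1308 nt held no peak in either condition. From nt 1309 to 2568 there were 12 regions, all found only without ADAR2, with mean ratios from 0.09 to 0.71. They include runs of 3, 4 and 2 abutting regions, each run with a single value in the second SRSF9-only library. Peaks with ADAR2 began at nt 2569. From there to nt 7875 the RNA held 13 regions with ADAR2 only, 15 without ADAR2 only and 11 shared. The last 833 nt, which include the 3′ end, again held no peak.

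The 5′ edge of the part with peaks without ADAR2 lay next to a second start of the gene. RefSeq (GRCh38.p14) lists a MALAT1 start whose window of 250 bases before and 50 after it matched the transcript at nt 1034 to 1333, which puts that start at nt 1284. The first MALAT1 peak, found only without ADAR2, began 25 nt downstream of it and had ratios of 0.10 and 0.08. Peaks with ADAR2 began further on, at nt 2569. The window is printed with the bases under the first peak in capitals.
MALAT1 nt 1034 to 1333: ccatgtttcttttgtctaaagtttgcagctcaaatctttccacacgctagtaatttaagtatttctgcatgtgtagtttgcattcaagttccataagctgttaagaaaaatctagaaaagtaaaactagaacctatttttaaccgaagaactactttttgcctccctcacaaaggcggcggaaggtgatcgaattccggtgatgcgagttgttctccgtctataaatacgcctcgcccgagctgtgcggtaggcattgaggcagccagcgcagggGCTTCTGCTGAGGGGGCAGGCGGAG

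Peaks of the conditions lay close to each other in MALAT1 as a whole. Its longest stretch between peaks of any class was 406 nt, so a distance under 1 kb carries little weight. Of the 13 regions with ADAR2 only, 13 lay within 1 kb of a peak present without ADAR2 and 7 within 100 nt, at a median distance of 85 nt. Of the 27 regions without ADAR2 only, 12 of them before nt 2569, 23 had a peak with ADAR2 within 1 kb and 12 within 100 nt, at a median distance of 139 nt. In NEAT1, 24 of 38 regions with ADAR2 only lay within 1 kb of a peak present without ADAR2 and 6 within 100 nt. The median distance there was 699 nt. From nt 2569 to 3000 of MALAT1, 2 shared regions enclosed 4 regions without ADAR2 only.

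Those 4 regions had ratios below 0 in both SRSF9-only libraries, as did 1 further region of the class at nt 4934 to 4964. The region from nt 2749 to 2757 had -0.85 and -0.17 in the SRSF9-only libraries, the lowest mean of the class. The highest mean of the class was at nt 1380 to 1399, at 1.35 and 0.08. The value of 0.08 is the same in all 3 rows of that abutting run, whose first-library values spread between 0.10 and 1.35. Over all 27 regions the medians of the SRSF9-only libraries were 0.53 and 0.31, and 5 regions were below 0.

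Regions with ADAR2 only in MALAT1 had medians of 0.15 and 0.69 in the first and second library with ADAR2. The highest, at nt 3041 to 3050, had 1.51 and 1.43, and the next, at nt 6630 to 6651, had 0.615 and 1.04. The lowest, at nt 3989 to 4017, had -0.56 and -0.65. Of the 13, 4 were below 0 in both libraries.

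**Figure D2:**
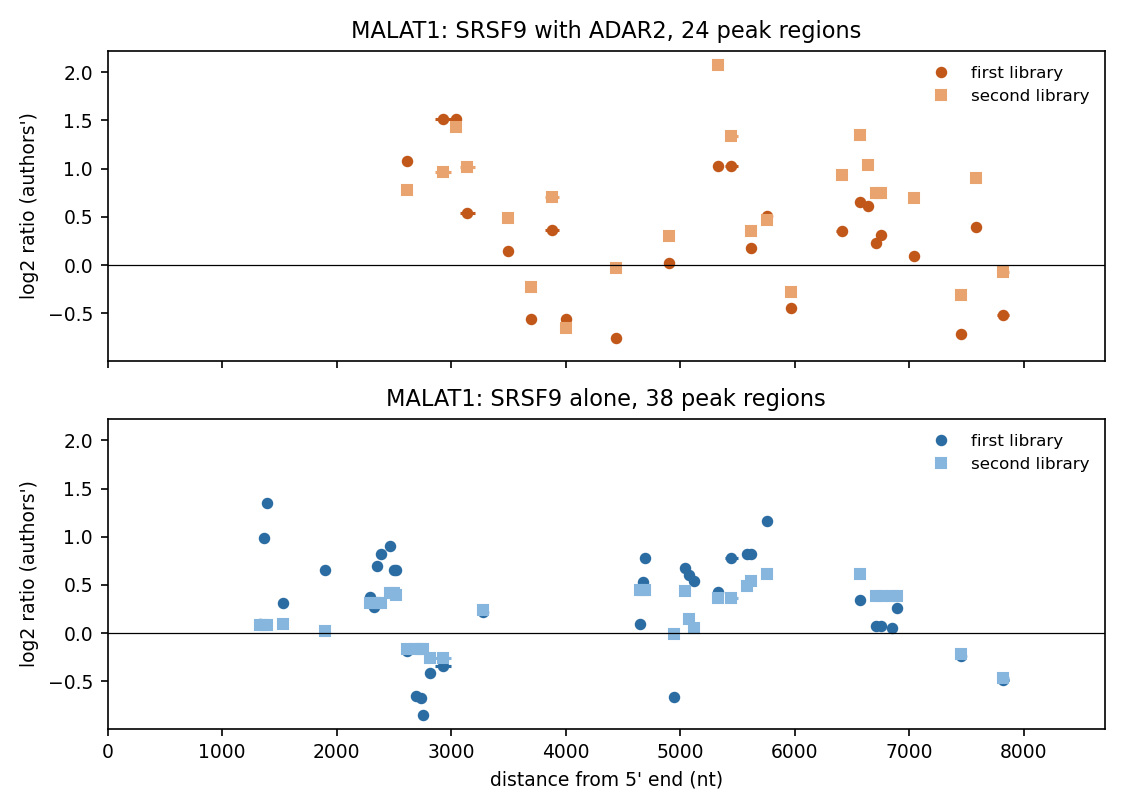
Authors' log2 ratio (y axis) of each MALAT1 peak region against distance from the 5′ end in nt (x axis), with ADAR2 above and SRSF9 alone below; each marker is a library, at the middle of the region, and a horizontal bar gives the extent of a region wider than the marker. The 24 regions with ADAR2 start at nt 2569, while the 38 regions with SRSF9 alone start at nt 1309.

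NEAT1 peaks were most dense towards its ends. The part that the short form shares with the long form, up to nt 3660 by the GENCODE annotation, held 15 regions, or 4.10 per kb, and was covered over 38.0% of its length. The remaining 19083 nt, found in the long form alone, held 33 regions, or 1.73 per kb, and were covered over 7.94%. The longest stretch without a peak ran over 4763 nt, from nt 7482 to 12244, and the next over 2422 nt, from nt 12780 to 15201. Of 23 bins of 1 kb, 17 held a peak.

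The ratios with ADAR2 followed the same layout. In the first 5000 nt all 17 regions present with ADAR2 had mean ratios above 0, with a median of 0.82. From there to nt 21000, 12 of 18 were below 0, with a median of -0.26. In the last 1743 nt all 10 were above 0, with a median of 0.83. These 3 stretches were set after the values were seen and were not compared by a test.

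The highest NEAT1 ratios stood at its very ends. The region from nt 22627 to 22690, chr11:65212895-65212958, which ends 53 nt before the 3′ end, had 2.12 and 2.40 in the libraries with ADAR2. The region from nt 121 to 246, chr11:65190389-65190514, had 1.76 and 2.08. Both were found with ADAR2 only and their ratios lay above those of every other NEAT1 region in each library with ADAR2. The widest region of NEAT1, 241 nt from nt 682 to 922, had 0.56 and 1.09. The lowest exclusive ratios were at nt 16178 to 16185, with -1.19 and -0.79, and at nt 7414 to 7466, with -0.86 and -1.02.

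NEAT1 held 3 regions without ADAR2 only. The region at nt 1817 to 1906 had 0.38 and 0.18 in the SRSF9-only libraries, and that at nt 3554 to 3596 had 0.15 and 0.18. The last, at nt 17399 to 17413, lay in the long form alone and had 1.01 and 0.82. It was the only peak without ADAR2 in NEAT1 with a ratio above 1 in a library.

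**Figure D3:**
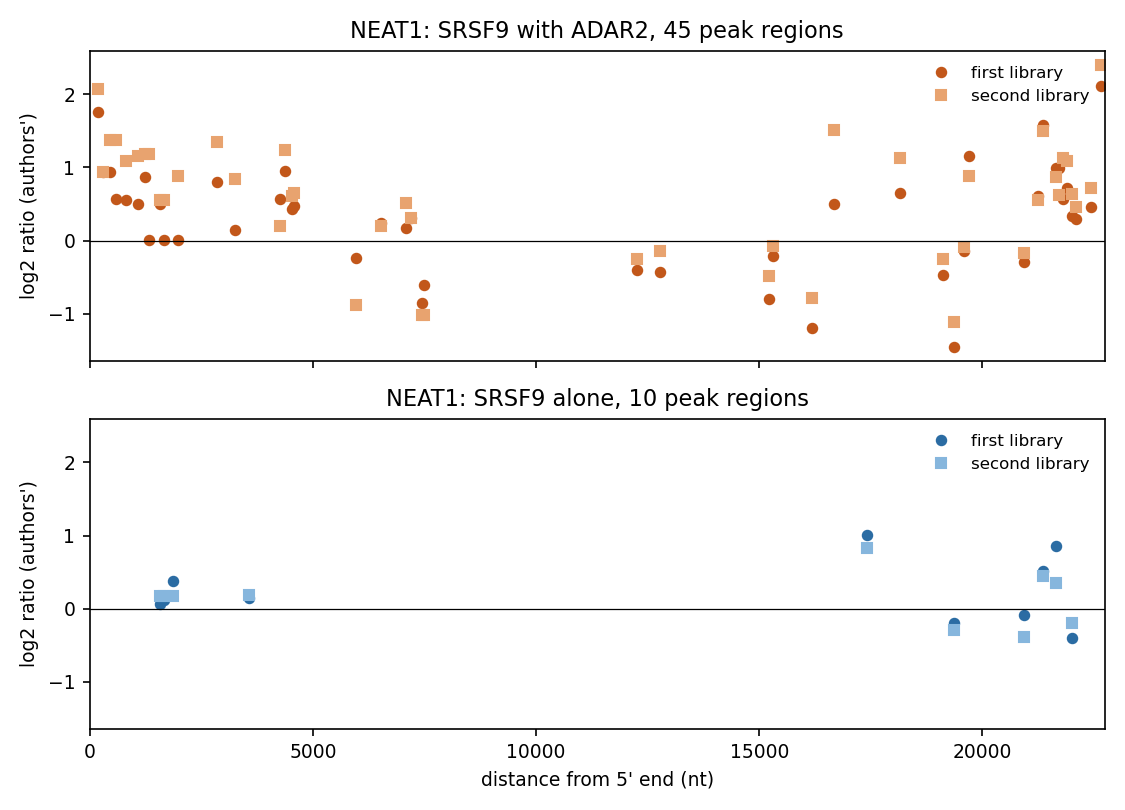
Authors' log2 ratio (y axis) of each NEAT1 peak region against distance from the 5′ end in nt (x axis), with ADAR2 above and SRSF9 alone below; each marker is a library, at the middle of the region, and a horizontal bar gives the extent of a region wider than the marker. With ADAR2, the 17 regions of the first 5000 nt and the 10 of the last 1743 nt lie above 0, and 12 of the 18 between lie below 0.

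In 11 regions of MALAT1 and 7 of NEAT1 all 4 libraries had values, so the conditions could be set side by side. By limma on all 3645 shared regions with Benjamini-Hochberg adjustment, 1 of the 11 MALAT1 regions passed as higher with ADAR2 and 0 as lower, and 0 of the 7 NEAT1 regions passed in either direction. Over all shared regions 18.5% passed as higher and 2.41% as lower. At an unadjusted p under 0.05 the numbers were 1 in MALAT1 and 0 in NEAT1, against 1218 of all shared regions (33.4%). The contrast is the one by which the locus was chosen, and nothing is read from these counts.

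The median difference, with ADAR2 minus SRSF9 alone, was 0.30 on the log2 scale over the MALAT1 regions and 0.33 over the NEAT1 regions, against 0.62 over all shared regions. The place of MALAT1 below the table's median turned without the second SRSF9-only library (0.41, against 0.27 over all shared regions) and without the first library with ADAR2 (0.518, against 0.4998). With every deposited row kept, the median of MALAT1 was 0.59, against 0.61. The difference was positive in 8 of 11 MALAT1 and 6 of 7 NEAT1 regions. It was above the table's median in 3 MALAT1 and 2 NEAT1 regions. With every library centred on its own median over the shared regions, the median difference was -0.29 for MALAT1 and -0.26 for NEAT1.

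The region that passed was the widest of MALAT1, from nt 2861 to 3000 (chr11:65268093-65268232). Its ratios were 1.51 and 0.96 with ADAR2 and -0.34 and -0.26 with SRSF9 alone, so that all values with ADAR2 were above 0 and all values without it below. The difference was 1.53 ± 0.59 (SE, limma adjusted p = 0.0467), and this SE was the same for all shared regions. For this region -0.34 is the average of 3 rows with -0.15, -0.30 and -0.57. The value of 1.51 stands also in the next region with ADAR2 only, at nt 3041, and -0.26 in the region before it, so neither belongs to this region alone. The call was lost after centring (difference 0.94, limma adjusted p = 0.110) and without any 1 of the 4 libraries (limma adjusted p from 0.0987 to 0.514), where the difference lay between 1.26 and 1.81.

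Other MALAT1 regions with higher values with ADAR2 did not pass. At nt 2569 to 2653 the ratios were 1.08 and 0.78 with ADAR2 and -0.19 and -0.17 with SRSF9 alone (limma adjusted p = 0.171). At nt 5292 to 5372 they were 1.03 and 2.08 with ADAR2 and 0.43 and 0.37 with SRSF9 alone (limma adjusted p = 0.1498). In that region the spread between the libraries with ADAR2 was nearly as large as the difference of 1.16 between conditions. At nt 5392 to 5503 the ratios were 1.03 and 1.34 with ADAR2 and 0.78 and 0.37 with SRSF9 alone. The value of 1.03 with ADAR2 is repeated in both of these neighbouring regions, and so is 0.37 with SRSF9 alone. Their first SRSF9-only values, 0.43 and 0.78, are averages of 2 and 4 rows.

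Just downstream the order was the other way round. At nt 5600 to 5633 the ratios were 0.18 and 0.35 with ADAR2 and 0.82 and 0.54 with SRSF9 alone. At nt 5731 to 5784 they were 0.51 and 0.47 with ADAR2 and 1.17 and 0.61 with SRSF9 alone. Neither difference, -0.41 and -0.40, passed by limma (adjusted p = 0.663 and 0.673). The 5 remaining MALAT1 regions, from nt 6531 on, had differences between -0.29 and 0.52. The 2 most 3′ ones, at nt 7418 to 7487 and nt 7770 to 7875, were below 0 in every library.

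In NEAT1, the largest positive difference was at nt 21317 to 21420 (chr11:65211585-65211688). The ratios there were 1.58 and 1.499 with ADAR2 and 0.51 and 0.44 with SRSF9 alone, which did not pass by limma (difference 1.07, adjusted p = 0.190). At nt 21976 to 22047 they were 0.34 and 0.63 with ADAR2 and -0.41 and -0.20 with SRSF9 alone. At nt 19348 to 19389 (chr11:65209616-65209657) they were -1.45 and -1.12 with ADAR2 and -0.20 and -0.29 with SRSF9 alone. All values of that region were below 0, and those with ADAR2 were the lower ones. Its difference of -1.05 did not pass by limma (adjusted p = 0.199), and after centring it was -1.64 and passed (limma adjusted p = 0.0096). After centring, 12.6% of all shared regions passed as higher and 10.9% as lower.

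The other 4 NEAT1 regions had differences between 0.01 and 0.42. In 5 of the 11 MALAT1 regions and 4 of the 7 NEAT1 regions both libraries with ADAR2 exceeded both with SRSF9 alone, against 49.9% of all shared regions. Both lay below in 3 and 1 of them, against 9.22% of all shared regions.

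**Figure D4:**
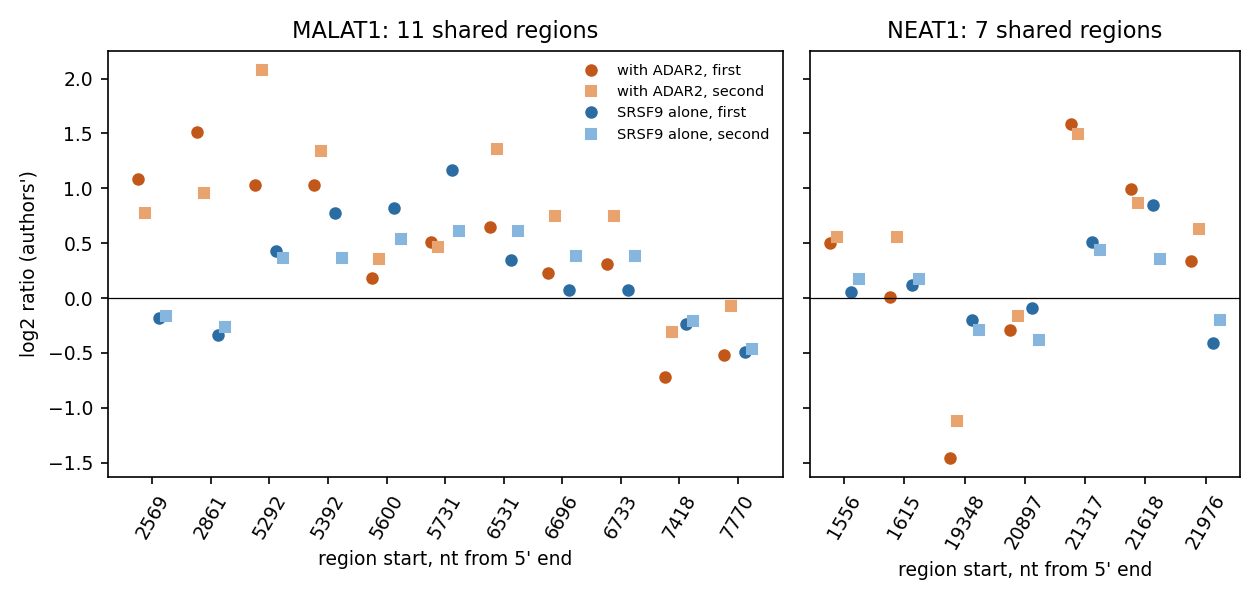
Authors' log2 ratio (y axis) in each of the 4 libraries for the 11 MALAT1 and 7 NEAT1 shared regions, ordered by their start in nt from the 5′ end (x axis), with ADAR2 left of SRSF9 alone. In the MALAT1 regions starting at nt 2569 and 2861 the libraries with ADAR2 lie above 0 and those with SRSF9 alone below 0.

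Averages over the shared regions of an RNA give 1 value per library. MALAT1 averaged 0.48 and 0.77 in the libraries with ADAR2 and 0.22 and 0.20 in those with SRSF9 alone, a difference of 0.42. NEAT1 averaged 0.24 and 0.40 with ADAR2 and 0.12 and 0.04 with SRSF9 alone, a difference of 0.24. In both RNAs the groups did not overlap, and the same held over all shared regions. Those averaged 1.21 and 0.97 with ADAR2 and 0.84 and 0.10 with SRSF9 alone, a difference of 0.62. An exact permutation test over libraries, two-sided, gave p = 0.333 for each, the smallest p that 2 against 2 libraries allow. After centring each library on its median, the differences were -0.17 for MALAT1 and -0.35 for NEAT1.

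Averaged over the libraries of a condition, the ratios of both RNAs were low beside the rest of the table. Over all regions present with ADAR2, the median mean ratio was 0.51 in MALAT1 and 0.53 in NEAT1, against 1.10 in the table. Over all regions present with SRSF9 alone it was 0.33 in MALAT1 and 0.16 in NEAT1, against 0.71. Ratios above 1 in both libraries with ADAR2 were found in 3 of 24 MALAT1 and 3 of 45 NEAT1 regions, against 32552 of 75594 regions of the table. With SRSF9 alone there were 0 of 38 in MALAT1 and 0 of 10 in NEAT1, against 782 of 8408. In the second SRSF9-only library by itself, the median of MALAT1 regions without ADAR2 only was 0.31. It was 0.28 in the table and 0.18 in the 3 such regions of NEAT1. That 0.31 is the value repeated in the 4 abutting rows at nt 2275 to 2397. The 27 MALAT1 regions held 16 distinct values, so their median depends on repeats and does not place MALAT1 above the table. In shared regions the second-library median was 0.37 in MALAT1, against 0.20 in the table and 0.18 in NEAT1.

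With ADAR2, the libraries stood in another order than in the table: the second was higher in 19 of 24 MALAT1 and 35 of 45 NEAT1 regions, while over the table the first was higher in 46207 of 75594. With SRSF9 alone the first was higher in 21 of 38 MALAT1 and 6 of 10 NEAT1 regions, against 7713 of 8408 in the table. The median of first minus second library was 0.07 in MALAT1 and 0.08 in NEAT1, against 0.84 over the table. In shared regions the first library had the lower median in both RNAs, 0.08 against 0.37 in MALAT1 and 0.06 against 0.18 in NEAT1. Over all shared regions it had the higher, 0.95 against 0.20. Across regions the ratios of the 2 libraries with ADAR2 correlated with Pearson's r of 0.86 in MALAT1 (24 regions) and 0.89 in NEAT1 (45 regions). With SRSF9 alone r was 0.68 in MALAT1 (38 regions) and 0.89 in NEAT1 (10 regions). Neighbouring regions share values and the libraries share a peak set, so these coefficients are descriptions.

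**Figure D5:**
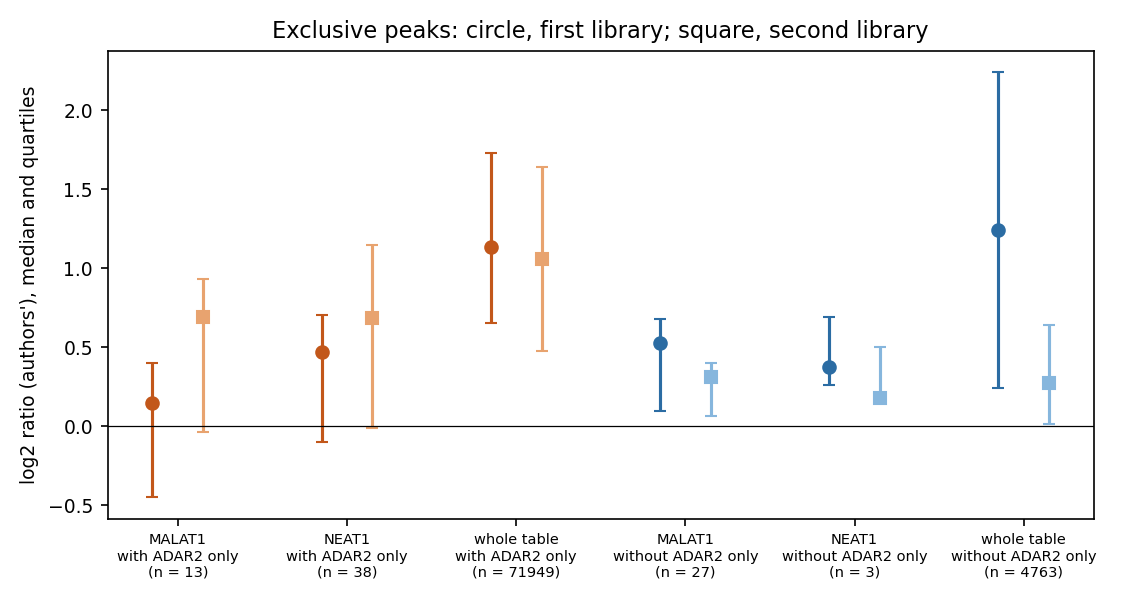
Authors' log2 ratio (y axis) of peaks found with ADAR2 only and without ADAR2 only in MALAT1, NEAT1 and the whole table (x axis); circles are the first and squares the second library, at the median, with bars to the quartiles. MALAT1 and NEAT1 medians lie at 0.15 to 0.69 with ADAR2, below the table's 1.13 and 1.06. Without ADAR2 only, the second-library median is 0.31 in MALAT1, 0.18 in the 3 regions of NEAT1 and 0.28 in the table. The 27 MALAT1 regions hold 16 distinct values in that library, so their median depends on repeated values.

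Pooled by class, regions present with ADAR2 were richer in G and C than the RNA outside all peaks, and those without ADAR2 only were close to it. In NEAT1, regions with ADAR2 only had 60.4% G or C and shared regions 56.4%, against 41.9% outside all peaks. Regions without ADAR2 only had 41.2%, but these are 3 regions that span only 148 nt. Regions with ADAR2 only were richer in the part shared with the short form (59.2% in the regions, 48.6% over that part). The same held in the long form alone (61.7% and 43.2%). In MALAT1, shared regions had 47.1% G or C, regions with ADAR2 only 44.8% and regions without ADAR2 only 38.1%, against 39.1% outside all peaks. Pooled, the 2 sets of MALAT1 peaks found in a single condition thus stood on either side of the RNA's 40.3%. Single runs of abutting MALAT1 peaks without ADAR2 only ranged from 27.7% to 52.3%.

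GGA, searched on the transcript strand, was most dense in the MALAT1 regions without ADAR2 only, at 28.5 per kb, with 24.9 per kb in shared regions, 17.2 in regions with ADAR2 only and 16.7 outside all peaks. In NEAT1 it stood at 25.6 per kb in regions with ADAR2 only, 24.5 in shared regions and 13.5 in regions without ADAR2 only, against 14.1 outside. The part shared with the short form had 26.0 per kb over its whole length and 32.1 in its regions with ADAR2 only. The long form alone had 13.7 per kb, and 19.4 in such regions. As the share of regions holding at least 1 GGA, shared regions had 90.9% in MALAT1 and 85.7% in NEAT1, where 71.1% and 58.6% of all windows of the same lengths in these RNAs held it. Regions with ADAR2 only had 53.8% in MALAT1 and 55.3% in NEAT1, against 60.3% and 45.5% of windows. Regions without ADAR2 only had 44.4% in MALAT1, against 40.3% of windows. In NEAT1 they had 66.7%, against 42.3%, but these are 2 of 3 regions that span only 148 nt. A match is a description of the letters and not a binding site.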

How the data were processed

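The deposited table is 1 peak list for the whole series, with no header, strand or gene name. It holds log2 ratios computed by the authors, taken as log2 from their range and sign. The hg19 build is named in the submitters' processing notes. The aligner, peak caller and thresholds were not given in the sources used here. Rows found in 1 condition hold 0 in both columns of the other, which tied the column pairs to conditions. Rows overlapping either interval were taken, and rows with identical coordinates averaged. Shared regions were fitted with limma 3.58.1 (2 libraries per condition, no pseudocount, Benjamini-Hochberg over all 3645 regions, threshold 0.05). A check on simulated data used differences larger than any in the shared regions of MALAT1 or NEAT1. It therefore does not cover differences of the sizes given here. In the main fit a single SE applied to all regions. In the centred fit and in the fits without an SRSF9-only library the SE differed between regions. Regions were named by rule: shared regions, the 3 highest and 2 lowest of each exclusive class, the most 5′ and most 3′ of each class, and the widest of each RNA. Others were chosen after their values were seen. The members and lists were chosen with earlier results of these data known. The input library has no column and was not analysed here, nor were other noncoding RNAs.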

Additional observations from a re-analysis of the deposited data

How the results depend on the processing

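No paired analysis was possible because the columns carry no replicate numbers. Over all shared regions, 675 were higher and 88 lower with ADAR2 by limma. Centring gave 459 and 396. With a mean ratio above 0 required, 47 were lower, and with values above 0 in all 4 libraries 77 were higher and 5 lower. Leaving out 1 library gave 0 to 199 higher and 0 to 22 lower; the counts of 0 arose without either SRSF9-only library (1405 and 1051 at an unadjusted p under 0.05). The difference averaged over shared regions ran from 0.16 to 0.32 in NEAT1 and from 0.27 to 0.56 in MALAT1 on leaving out 1 library, and centring turned it to -0.35 and -0.17. Centring also turned single regions to -0.17, -0.45, -0.58 and -0.26 in NEAT1 and to -0.066, -0.33, -0.29 and -0.41 in MALAT1; it lowers every difference by 0.59 and leaves the table's median difference at 0.03. On leaving out 1 library, differences that changed sign ranged from -0.14 to 0.41 at nt 1615 and from -0.13 to 0.16 at nt 20897 of NEAT1, and from -0.0020 to 0.52 at nt 6696 and from -0.044 to 0.41 at nt 7770 of MALAT1. The median difference ranged from 0.17 to 0.41 in NEAT1 and from 0.08 to 0.52 in MALAT1, against 0.27 to 0.99 over all shared regions. With a mean ratio above 0 required, the MALAT1 region that had passed did not (limma adjusted p = 0.0540). With every row kept, 2 MALAT1 rows passed. With a ratio above 1 required in both libraries, NEAT1 kept 2 peaks with ADAR2 only and 0 of the other classes, and MALAT1 1 with ADAR2 only and 0 of the others. With a ratio above 0, MALAT1 kept 11 shared rows. Merging within 100 nt left 23 NEAT1 stretches with ADAR2 only, and in MALAT1 10 without ADAR2 only and 6 shared. Joining abutting rows left 16 without ADAR2 only in MALAT1, and that joining or counting identical coordinates once left 11 shared; both of these were chosen after seeing the data. Bins of 500 nt left 56.5% of NEAT1 and 77.8% of MALAT1 bins with a peak, against 73.9% and 77.8% of 1 kb bins. Where no construction explains a change, the cause was not tested.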
